A study of Drosophila melanogaster with 36 samples.

Results

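Pink1 (CG4523) and 9 other genes of mitochondrial quality control were followed in the thorax of adult Drosophila expressing PABPN1-17ala, the polyalanine-expanded nuclear poly(A) binding protein that causes oculopharyngeal muscular dystrophy. The 10 genes were taken by their CG identifiers out of 13820 gene identifiers on the arrays. Each of the 10 had a value on all 36 arrays and was among the 13791 genes tested. Pink1 was selected on its lower level in PABPN1-17ala thoraxes at days 2, 6 and 11 in these same values, so its genotype difference is described here with no test. The other 9 genes, park, Marf, Opa1, Drp1, Lon, Trap1, rho-7, Hsp60A and Hsc70-5, accompany it as genes of the same process.

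Control flies were Mhc-Gal4/+ and the disease model was UAS-PABPN1-17ala/+; Mhc-Gal4/+, so that both groups carried the same driver, which is active in muscles, and only the second carried the transgene. No group here expressed PABPN1 without the expansion. RNA came from 3 extracts of 50 thoraxes for each genotype and age, and each of the 6 conditions has 6 arrays, with the sample labelled in Cy5 on replicates 1 to 3 and in Cy3 on replicates 4 to 6. Every array also carried a common reference, pooled from the control samples at day 2. The thorax is mostly flight and leg muscle but holds other tissues, and in such bulk RNA fewer cells of a type and less RNA per cell cannot be told apart.

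PINK1 is a kinase that is imported and destroyed in healthy mitochondria and accumulates on the surface of depolarised ones, where it recruits and activates the ubiquitin ligase Parkin. Parkin then marks outer membrane proteins, among them the fusion GTPase Marf and the transport adaptor Miro, and the organelle can be removed by autophagy. Flies lacking pink1 or parkin are known for degenerating flight muscles with swollen mitochondria. Fusion by Marf and Opa1, fission by Drp1, proteases such as Lon and the rhomboid protease rho-7, and the matrix chaperones Trap1, Hsp60A and Hsc70-5 make up the rest of the surveillance.

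The deposited values are log ratios, read here as the log2 of sample over reference. Neither the base nor the direction is stated in the sources used here. GstD1, a glutathione S-transferase, was on the same side on both dyes, so for this gene the dyes run the same way. Its mean in PABPN1-17ala at day 2 was 2.33 with Cy5 and 2.37 with Cy3, against 0.18 and 0.17 in controls. Over all genes, r between arrays of different dyes ran from -0.502 to 0.698 with a median of 0.111. Between arrays of the same dye it ran from -0.118 to 0.856 with a median of 0.319. Below -0.3 were 13 of 324 pairs of different dyes and 0 of 306 of the same dye. The labels alone do not settle the direction, and sample over reference is the likely one. Read this way, GstD1 was higher in PABPN1-17ala, the way its reporter transgene ran in the muscles of the study. The study also reported lower mRNA levels of nuclear respiratory complex genes in these muscles, with RT-qPCR of some of them. ND-51, a complex I subunit, followed Pink1 here (r = 0.913), which is lower in PABPN1-17ala under the same reading. In control thoraxes the cuticle protein genes Cpr49Ae and Cpr100A were lower at day 11 than at day 2 (log2 fold change -1.85 and -1.46, limma adjusted p = 4.25e-06 and 0.00139), as is usual for genes used soon after eclosion. The larval storage and fat body genes, which also fade after eclosion, did not settle it, with a median of -0.18 and 0 of 6 past the threshold in the limma fit (2 at an unadjusted p below 0.05). They ran from -0.75 to 0.86, with 4 below 0 and 1 above 0 on both dyes. Against day 2, the highest at day 6 was 1.57 in controls and 1.95 in PABPN1-17ala. In PABPN1-17ala 1 of 6 was called higher at day 6 and 1 lower at day 11.

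The source label of PABPN1-17ala day 2 replicate 1 names the control genotype while its other labels name PABPN1-17ala, and it was used as PABPN1-17ala. Its correlation with the arrays of its condition and dye was 0.523, against 0.70 and 0.71 for those arrays, and PABPN1-17ala day 11 replicate 4 likewise stood at 0.567 against 0.77 and 0.775. For control day 2 arrays it ran from 0.415 to 0.588. The spot for the Gal4 coding sequence was 1.01 higher in PABPN1-17ala than in controls at day 2, and was lower at day 11 than at day 2 in both genotypes.

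Pink1 was lower on every PABPN1-17ala array than on every control array of the same dye and age. At day 2 the Cy5 control arrays read 0.38, 0.17 and 0.79, and the Cy5 PABPN1-17ala arrays read -0.33, -0.57 and -0.44. The Cy3 arrays read 0.22, 0.65 and 0.34 in controls and -0.60, -0.69 and -0.58 in PABPN1-17ala. The 6 controls of that age lay above 0 on both dyes although the reference was itself pooled from day 2 controls, with a mean of 0.42 ± 0.25 (SD over 6 arrays of 3 extracts), and since that reference is common to all arrays it cancels in every difference between groups.

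At day 6 Pink1 read 0.76, 0.48 and 0.71 in Cy5 controls and -0.68, -0.25 and -0.63 in Cy5 PABPN1-17ala arrays. With Cy3 the controls read 0.63, 0.66 and 0.54 and the PABPN1-17ala arrays -0.40, -0.87 and -0.96. The controls were tightest at this age, with an SD of 0.10 over the 6 arrays. At day 11 the Cy5 controls read 0.00, 0.45 and 0.45 and the PABPN1-17ala arrays -1.02, -0.98 and -0.58. The Cy3 controls read 0.97, 0.15 and 0.94 and the PABPN1-17ala arrays -0.45, -0.71 and -0.53. Controls were widest at day 11 (SD 0.40 over the 6 arrays), with 1 Cy5 and 1 Cy3 array near the reference, and still did not overlap PABPN1-17ala.

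Expressed as log2 fold changes, the mean of both dyes, Pink1 differed by -0.96 at day 2, -1.26 at day 6 and -1.21 at day 11, which are 1.94-, 2.4- and 2.31-fold lower levels. Cy5 and Cy3 gave -0.89 (SE 0.17) and -1.02 (SE 0.19) at day 2, -1.17 and -1.35 at day 6, and -1.16 and -1.25 at day 11, with the same SE for each dye at each age. Ranked by fold change, Pink1 stood 18th, 35th and 30th from the bottom of 13791 genes at the 3 ages, places that count from the top if the ratio runs the other way. The difference at day 11 minus that at day 2 was -0.25 (Cy5 -0.27, SE 0.24, and Cy3 -0.23, SE 0.26). Without PABPN1-17ala day 2 replicate 1 the day 2 difference was -0.99.

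**Figure D1:**
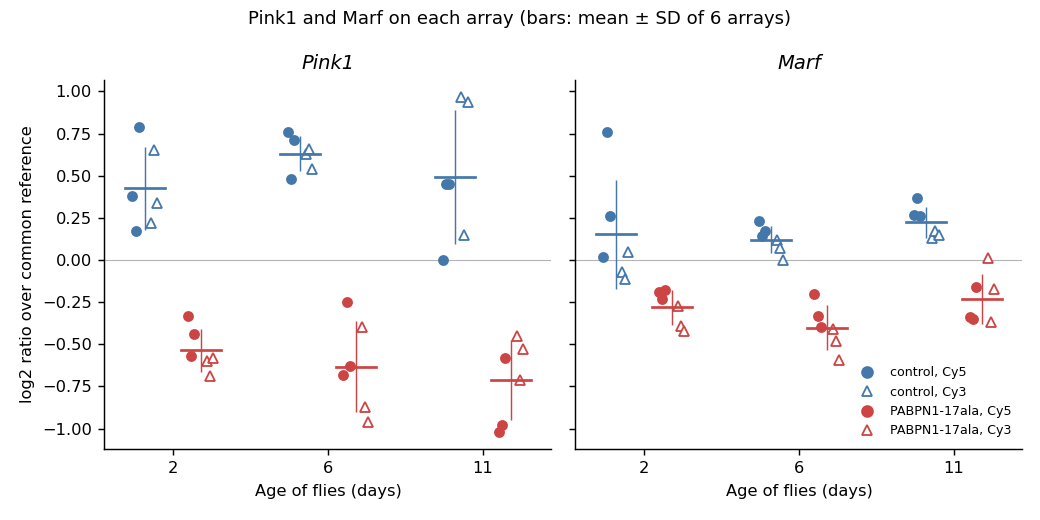
Log2 ratio over the common reference (vertical axis) of Pink1 and Marf on each of the 36 arrays by age in days (horizontal axis); filled circles are Cy5 arrays, open triangles Cy3 arrays, blue control and red PABPN1-17ala, and bars give the mean and SD of 6 arrays. Within each dye and age the PABPN1-17ala arrays lie below the controls for both genes, and Marf on control day 2 replicate 2 (0.76) lies far above its group.

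Pink1 did not change detectably with age in either genotype. Its selection did not compare ages, but it used these same values and asked for a lower level at day 2, day 6 and day 11. The age comparisons are therefore not independent of that choice. In controls the log2 change from day 2 was 0.21 at day 6 (95% interval -0.17 to 0.59) and 0.07 at day 11 (-0.31 to 0.45). In PABPN1-17ala it was -0.10 at day 6 (-0.48 to 0.28) and -0.18 at day 11 (-0.56 to 0.20). The adjusted p was 1 in all 4 limma comparisons. These intervals treat the errors of both dyes as shared, and they leave room for changes with age of up to about 0.6. At day 11 the dyes disagreed in sign in both genotypes (Cy5 -0.14 and Cy3 0.29 in controls, -0.42 and 0.06 in PABPN1-17ala). Ordered by mean level, Pink1 was highest in controls at day 6 (0.63), then day 11 (0.49) and day 2 (0.42), followed by PABPN1-17ala at day 2 (-0.53), day 6 (-0.63) and day 11 (-0.71). Neighbours within a genotype differed by less than the larger of their SDs, and the step between control day 2 and PABPN1-17ala day 2 is the one the selection used.

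Parkin, encoded by park (CG10523) and acting directly downstream of PINK1, showed no such difference. At day 2 park ranged from -0.06 to 0.20 with a median of 0.03 in controls and from -0.17 to 0.16 with a median of -0.01 in PABPN1-17ala. The log2 fold change was -0.08 at day 2 (95% interval -0.22 to 0.06), -0.09 at day 6 (-0.23 to 0.05) and 0.04 at day 11 (-0.10 to 0.18), with an adjusted p of 1 at each age. At day 6 the PABPN1-17ala arrays lay below all controls of their dye on 5 of 6 arrays. Of all genes, 4.62% had all 6 arrays below at that age, and the share with 5 of 6 was not counted. A difference in park as large as that of Pink1 lies outside each of these intervals.

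Marf (CG3869), the fly mitofusin that joins outer membranes, was the one gene among the 9 tested that fell. Averaged over the 3 ages its log2 fold change was -0.47 (Cy5 -0.54, SE 0.07; Cy3 -0.40, SE 0.05; limma adjusted p = 0.000384 over 13791 genes), a 1.39-fold lower level. In that average 1.44% of all genes tested were called lower and 1.75% higher, and 1 of these 9 members was called lower and 0 higher. At single ages the limma fit called 0 of the 9, against 0.283% of all genes lower and 0.667% higher at day 2, 0.667% and 0.935% at day 6, and 0.428% and 0.754% at day 11. Marf was the 1 member of the 9 with an unadjusted p below 0.05 at each age, and the numbers called with other settings are given in the closing section.

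On the arrays Marf separated by genotype at every age. At day 2 the Cy5 controls read 0.02, 0.76 and 0.26 against -0.19, -0.23 and -0.18 in PABPN1-17ala. The Cy3 controls read -0.07, -0.11 and 0.05 against -0.27, -0.39 and -0.42. The second Cy5 control stood far above the other controls, and without it the day 2 log2 fold change was -0.33 in place of -0.43. At day 6 Marf read 0.23, 0.14 and 0.17 in Cy5 controls and -0.20, -0.33 and -0.40 in PABPN1-17ala. With Cy3 it read 0.12, 0.07 and 0.00 in controls and -0.41, -0.48 and -0.59 in PABPN1-17ala. This was the age at which the groups were farthest apart for their spread. At day 11 the Cy5 arrays read 0.27, 0.37 and 0.26 in controls and -0.34, -0.35 and -0.16 in PABPN1-17ala. The Cy3 arrays read 0.13, 0.17 and 0.15 in controls and 0.01, -0.37 and -0.17 in PABPN1-17ala. The array nearest to the controls, at 0.01, was replicate 4, which also correlated poorly with its group.

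All 6 PABPN1-17ala arrays lay below all controls of their dye for Marf at each age. That held for 2.00% of all genes at day 2, 4.62% at day 6 and 1.39% at day 11. The log2 fold change of Marf was -0.43 at day 2 (95% interval -0.66 to -0.20, adjusted p = 0.146), -0.52 at day 6 (-0.75 to -0.29, adjusted p = 0.0876) and -0.45 at day 11 (-0.68 to -0.22, adjusted p = 0.106) by limma, none of which passed the threshold of 0.05. Leaving out PABPN1-17ala day 11 replicate 4 gave -0.50 at day 11 with an adjusted p of 0.0171. The genotype difference at day 11 minus that at day 2 was -0.02 (-0.35 to 0.30, adjusted p = 1).

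Opa1 (CG8479), the inner membrane fusion GTPase, did not pass the test at any age. Its log2 fold change was 0.03 at day 2 (95% interval -0.15 to 0.21), -0.04 at day 6 (-0.21 to 0.14) and 0.06 at day 11 (-0.12 to 0.24). Drp1 (CG3210), the fission GTPase that acts against both, gave -0.03 (-0.20 to 0.15), 0.00 (-0.17 to 0.18) and -0.09 (-0.26 to 0.09). Opa1 and Drp1 had an adjusted p of 1 at each age. For Drp1 the dyes disagreed in sign at each age, most at day 11 (Cy5 0.08, Cy3 -0.25).

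Lon (CG8798), the matrix protease that degrades damaged proteins and, in flies, PINK1 that reaches the matrix, had the largest upward differences among the 9. At day 6 it ranged from -0.05 to 0.26 with a median of 0.12 in controls and from 0.25 to 0.43 with a median of 0.35 in PABPN1-17ala. PABPN1-17ala arrays lay above all controls of their dye on 5 of 6 arrays at day 2 and on 5 of 6 at day 6. Of all genes, 1.91% at day 2 and 5.78% at day 6 had all 6 arrays above, and the share with 5 of 6 was not counted. The log2 fold change was 0.18 at day 2 (95% interval -0.05 to 0.42) and 0.22 at day 6 (-0.01 to 0.46), with an adjusted p of 1, so this difference did not pass the test. At day 11 it was 0.04 and the dyes were opposed (Cy5 0.26, Cy3 -0.19), with 1 Cy5 control at -0.60.

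rho-7 (CG8972), a rhomboid protease of the inner membrane that acts on Opa1 and Pink1 in flies, gave -0.06, 0.04 and 0.07 at days 2, 6 and 11, with 95% intervals reaching no farther than -0.24 and 0.26. The chaperones gave small values too. Trap1 (CG3152), an Hsp90 of the matrix and a PINK1 substrate in mammals, gave -0.03, 0.02 and -0.05. Hsp60A (CG12101), the matrix chaperonin, gave 0.07, 0.04 and 0.00. Hsc70-5 (CG8542), the matrix Hsp70 also called mortalin, gave -0.01, -0.07 and -0.02. The adjusted p was 1 for each of these 4 genes at each age. Hsc70-5 at day 6 shows how little a clean separation can amount to. All 6 PABPN1-17ala arrays were below all controls of their dye, which held for 4.62% of all genes at that age. The ranges over both dyes were -0.11 to 0.05 in PABPN1-17ala and -0.02 to 0.08 in controls.

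**Figure D2:**
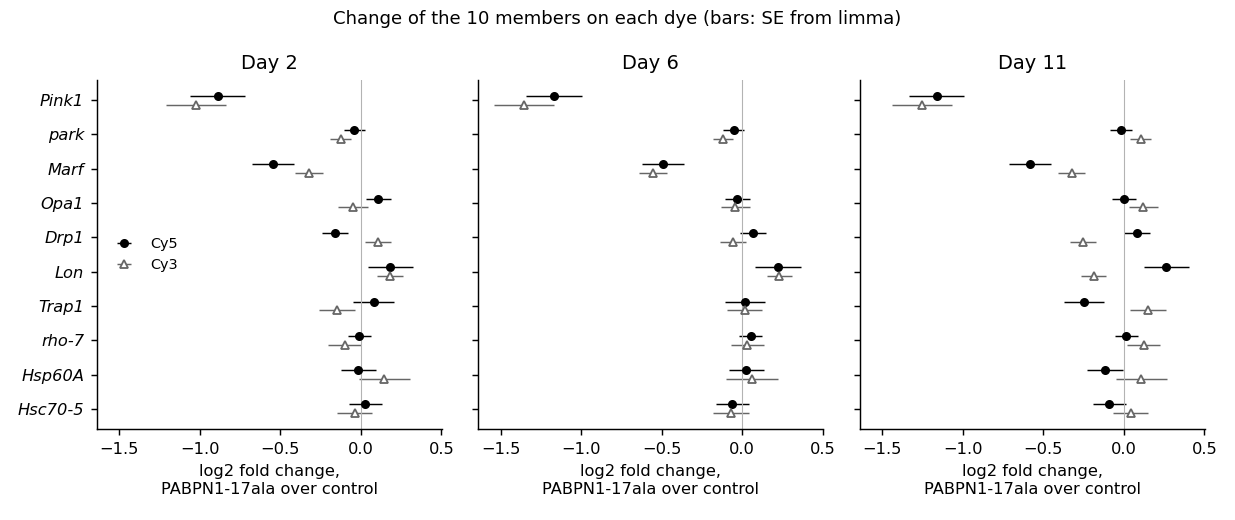
Log2 fold change of PABPN1-17ala over control (horizontal axis) of the 10 genes (vertical axis) at each age, with Cy5 arrays as filled circles, Cy3 arrays as open triangles and bars for the SE from limma. Pink1 and Marf lie below 0 on both dyes at each age, and the other 8 genes lie within -0.25 and 0.26.

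The genotype difference changed between day 2 and day 11 for 0 of the 9 tested genes, against 0.290% of all genes, and 0 of the 9 had an unadjusted p below 0.05 in limma. With age, 0 of the 10 genes changed in any of 4 limma comparisons against day 2 and 0 reached an unadjusted p below 0.05. Of all genes, 0.580% changed in controls at day 6 and 1.55% at day 11, and 1.78% and 3.94% in PABPN1-17ala. Several members moved apart on the dyes in controls at day 11. Trap1 was 0.46 higher on Cy5 and stood at -0.29 on Cy3, Hsc70-5 at 0.27 and -0.28, Opa1 at 0.17 and -0.31, and Lon at -0.35 and 0.25. These opposed signs leave their mean changes, between -0.07 and 0.08, without a direction.

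**Figure D3:**
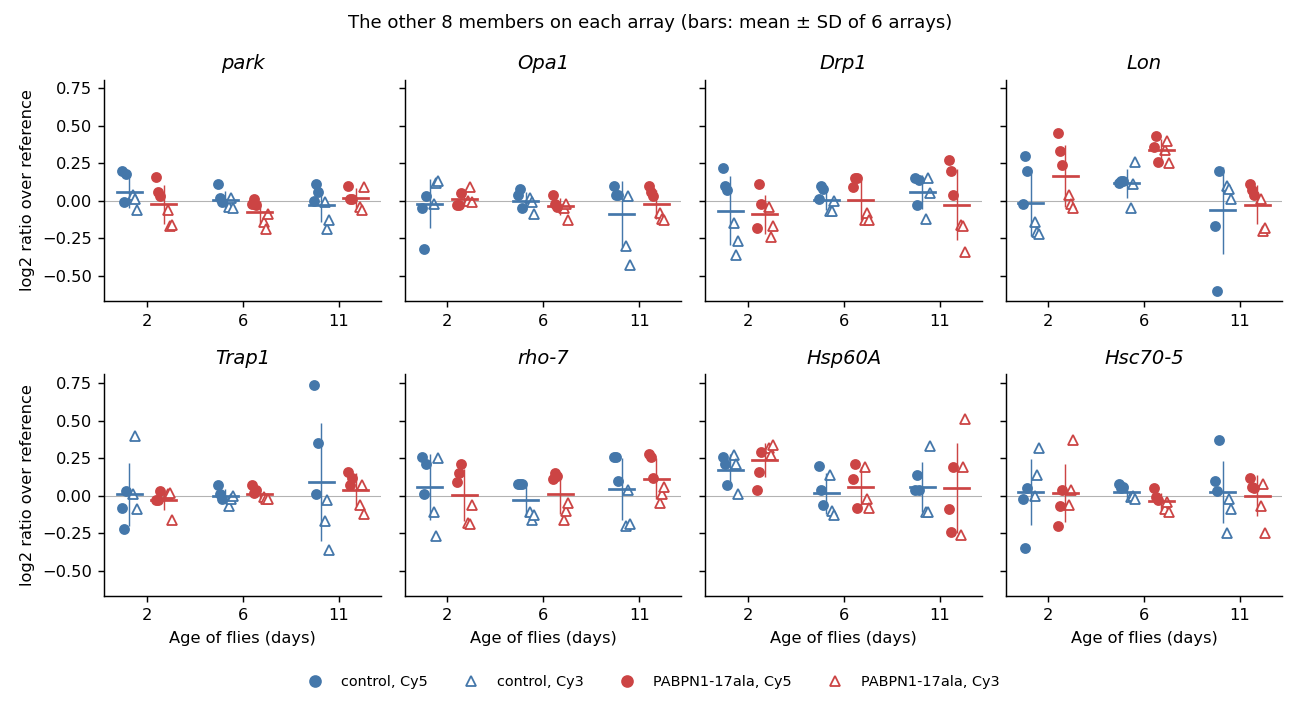
Log2 ratio over the common reference (vertical axis) of the other 8 genes on each array by age in days (horizontal axis), with symbols and colours as for Pink1 and Marf and bars for the mean and SD of 6 arrays. Control and PABPN1-17ala arrays overlap for most genes and ages, Lon in PABPN1-17ala is highest at day 6 (0.25 to 0.43), and control arrays at day 11 are spread for Trap1 (-0.36 to 0.74).

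Across the 36 arrays, after the mean of each dye was subtracted, the pattern of Marf was the 42nd closest to that of Pink1 among 13126 genes with complete values (Pearson r = 0.798). The arrays fall into the genotypes for both genes and share a reference, and with the mean of each condition and dye subtracted r was 0.03. The next member, park, had 0.35 over the arrays and 0.44 within conditions, and the remaining 7 lay between -0.25 and 0.03 over the arrays. Within conditions these 7 ran from -0.53 for Drp1 to 0.26 for Hsp60A. The genes closest to Pink1 were CG42319 (listed as CG17041, r = 0.931), UGP (0.923), rhea (0.918), ND-51 (0.913) and Ogdh (0.907). UGP makes UDP-glucose, rhea encodes talin, ND-51 is a subunit of respiratory complex I and Ogdh belongs to the citric acid cycle. Within conditions and dyes their r with Pink1 ran from 0.31 for CG42319 to 0.69 for Ogdh. These arrays include the genotype difference by which Pink1 was selected. Over the 12 means of condition and dye, which average the same arrays, 4 of these 5 were among the first 5.

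**Figure D4:**
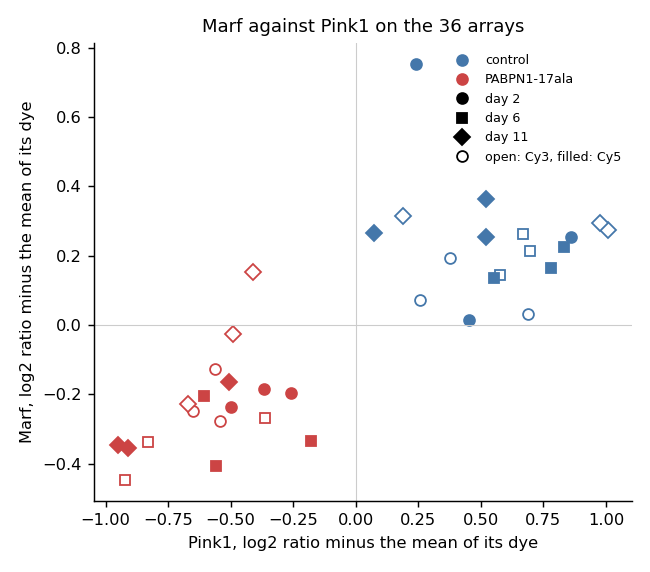
Marf (vertical axis) against Pink1 (horizontal axis) on the 36 arrays, each as log2 ratio minus the mean of its dye, with blue for control, red for PABPN1-17ala, a symbol for each age and open symbols for Cy3. The genotypes form separate groups along Pink1, and within them no slope is seen (r = 0.03 with condition and dye means subtracted).

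A wider list of 31 tested genes of the same processes set these members in context. Its median log2 fold change was -0.04, -0.03 and -0.01 at days 2, 6 and 11, beside -0.01, -0.01 and 0.03 for all genes. At day 2, 0 of the 31 were called in the limma fit, and 2 had an unadjusted p below 0.05. At day 6, 1 was called lower and 0 higher, beside 0.667% and 0.935% of all genes. At day 11, 0 were called lower and 1 higher, beside 0.428% and 0.754%. In the mean of the 3 ages 2 were called lower and 0 higher, beside 1.44% and 1.75% of all genes. With age, 2 of the 31 rose in PABPN1-17ala from day 2 to day 11, when 3.94% of all genes changed, Fis1, which acts in fission (0.76, adjusted p = 0.00709), and CG5676, the FUNDC1 homologue (0.88, adjusted p = 0.0106), both named after their values were seen. In controls 0 of the 31 changed over that time, also at an unadjusted p below 0.05, and the genotype difference changed from day 2 to day 11 for 0 of the 31 in limma (2 at an unadjusted p below 0.05).

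The most changed of the 31 was ClpX (CG4538), the unfoldase of the ClpXP matrix protease, at -0.84 over the 3 ages (adjusted p = 0.000992), a level 0.558 of control. At day 6 it read 0.29, 0.37 and 0.38 in Cy5 controls and -0.32, -0.54 and -0.63 in PABPN1-17ala, and with Cy3 0.57, 1.41 and 0.53 against -0.42, -0.37 and -0.65. All PABPN1-17ala arrays with a value lay below the controls of their dye, 6 of 6 at days 2 and 6 and 5 of 5 at day 11, where 1 Cy3 array had no value. Such a separation held for 2.00% of all genes at day 2, 4.62% at day 6 and 1.39% at day 11. At day 2 the Cy5 gap was narrow, with PABPN1-17ala replicate 1 at -0.36 and the lowest control at -0.35. That replicate is the array with the conflicting source label. Its protease partner ClpP was not called.

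Tango11 (CG30404), the fly mitochondrial fission factor that recruits Drp1, fell by 0.44 on the log2 scale over the 3 ages (adjusted p = 0.0121). At day 6 its arrays read 0.18, 0.01 and -0.04 in Cy5 controls and -0.33, -0.26 and -0.32 in PABPN1-17ala, and with Cy3 0.06, -0.15 and -0.14 against -0.42, -0.54 and -0.57. It lay below all controls of its dye on 6, 6 and 5 of 6 arrays at the 3 ages, the exception being PABPN1-17ala day 11 replicate 4 at 0.08. Of all genes, 2.00% at day 2 and 4.62% at day 6 had all 6 arrays below, and the share with 5 of 6 was not counted. Control day 2 replicate 2, which was high for Marf, was high for Tango11 too (0.84).

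Miro (CG5410), the adaptor that links mitochondria to microtubule motors, fell at day 6 (-0.60, adjusted p = 0.0132). It read 0.27, 0.20 and 0.20 in Cy5 controls and -0.28, -0.46 and -0.46 in PABPN1-17ala, and with Cy3 0.28, 0.38 and 0.38 against -0.20, -0.18 and -0.28. At day 2 (-0.12) and day 11 (-0.13) the groups overlapped and the adjusted p was 1. Pgam5 (CG14816), a phosphatase of the mitochondrial membrane that interacts with PINK1 signalling in flies, rose at day 11 (0.49, adjusted p = 0.041). Its day 11 values were 0.15, -0.21 and -0.25 in Cy5 controls against 0.45, 0.54 and 0.23, and -0.29, -0.15 and -0.49 in Cy3 controls against -0.14, 0.32 and 0.32. The genotype difference at day 11 against that at day 2 was not called in limma for Miro or Pgam5 (adjusted p = 1 and 0.596). For Miro this comparison leaves out day 6, the age of its call. Whether the difference in Miro at day 6 departs from those at the other ages was therefore not tested.

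**Figure D5:**
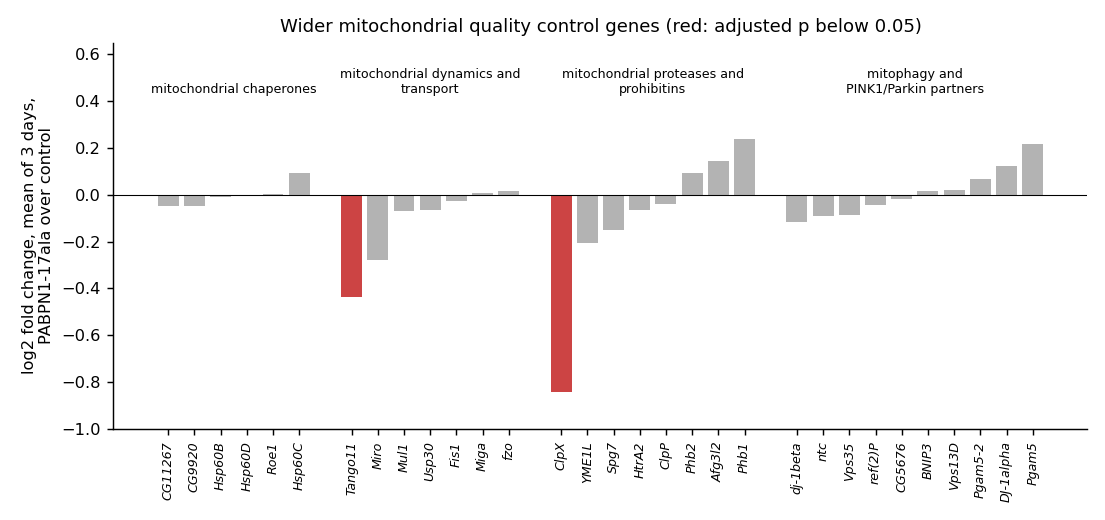
Log2 fold change of PABPN1-17ala over control averaged over the 3 ages (vertical axis) for the 31 genes of the wider list (horizontal axis), by process, with genes past an adjusted p of 0.05 in red. ClpX (-0.84) and Tango11 (-0.44) are the 2 genes in red.

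The muscle content of the samples was read from 13 tested genes of contractile proteins. Their mean log2 ratio on each array ranged from 0.52 to 0.85 in controls and from 0.56 to 0.82 in PABPN1-17ala at day 2, where their median log2 fold change was 0.10 with 0 of 13 called (4 at an unadjusted p below 0.05 in limma). At day 6 the means ranged from -0.11 to 0.29 in controls and from -0.53 to -0.06 in PABPN1-17ala, with 1 of 13 called lower, TpnC4, a troponin C of flight muscle (-1.84, adjusted p = 0.000309). At day 11 they ranged from -0.67 to -0.20 and from -1.19 to -0.12, with 0 of 13 called (4 at an unadjusted p below 0.05) and a median of -0.30. Over the 3 ages 2 of 13 were called lower, TpnC4 and fln, beside 1.44% of all genes. At single ages 0.283%, 0.667% and 0.428% of all genes were called lower. The 13 genes did not share a direction between genotypes. At day 2, 4 were lower with each dye and 8 higher (log2 fold change from -0.88 to 0.70). At day 6 these counts were 8 and 3 (-1.84 to 0.58), and at day 11 they were 7 and 0 (-1.616 to 0.215). For the mean of the 3 ages they were 7 and 2 (-1.27 to 0.37). The 13 genes thus give no single reading of muscle content. From day 2 to day 11, 5 of the 13 were called lower in controls and 9 of the 13 in PABPN1-17ala. Of all genes, 1.55% and 3.94% changed over that time in either direction. What part of this fall with age is muscle content was not tested. Of the genes marking fat body, hemocytes, neurons, gut and cuticle, 0 were called in a genotype comparison by limma. At an unadjusted p below 0.05 there were 1 hemocyte gene at day 2, none at day 6, and 2 adult fat body, 2 neuron, 1 gut and 1 cuticle gene at day 11. Of all 13791 genes, 543, 679 and 826 had an unadjusted p below 0.05 in limma at days 2, 6 and 11. The part of muscle or other tissue content in the differences of Pink1 and Marf was not tested. A ratio to a reference gives no level between genes, so whether each marker is absent or abundant cannot be read from these values.

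In the RefSeq annotation of the fly genome, Pink1 overlaps CG44303, Marf overlaps a long non-coding RNA gene and park overlaps Targ3 and an antisense RNA gene. Likewise rho-7 overlaps CG34231 and Opa1 overlaps mir-1016. None of these overlapping genes is among the array identifiers. Opa1 also overlaps CG8468, Drp1 overlaps Arpc5 and Lon overlaps CG9372, which the arrays do list. The probe positions were not used here, so how far a probe reads a neighbour was not tested.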

How the data were processed

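Thorax RNA was amplified, labelled with Cy5 or Cy3 and hybridised with a common reference on two-colour arrays. The authors deposited 1 normalized log ratio for each identifier and array, read here as log2; the scanner, normalization, log base and direction are not given in the sources used here. The 36 columns hold 13843 lines, of which 23 name no fly gene. Symbols came from RefSeq (12047 identifiers matched by locus tag, 1153 by synonym, 620 unmatched). A gene was tested if every condition had values on 2 or more of its 3 arrays with each dye. For each dye, limma 3.58.1 (R 4.3.3) was fitted to 18 arrays with 6 condition means. The fold change was the mean of both dyes, its p-value the less significant of the dyes (set to 1 if they disagreed in sign), and p-values were adjusted by Benjamini-Hochberg over 13791 genes (threshold 0.05). The dye arrays are probably the same 3 extracts labelled again, which the labels do not pair, so p-values within a dye measure the spread of 3 extracts. The 95% intervals used the mean of both SEs. The number of arrays limits the precision. Simulated data were used to check the fit, and Python 3.11.15 drew the figures.

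The members and lists were chosen with earlier results of these data known. Named genes were the 10 members, genes of the wider list called in a genotype comparison, and the 5 genes correlating best with Pink1. Fis1 and CG5676, called in an age comparison, fall outside that rule and were named after their values were seen. Of the wider list, Mtp18, milt, Hsp22 and l(2)tid were not tested. Alternatives comprised each dye alone, a single fit, assumed dye pairs, median centring, quantile normalization, complete genes, a replicate block, fits of the compared conditions alone, a threshold of 0.01 and leaving out each array.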

Additional observations from a re-analysis of the deposited data

Results flagged for a closer look

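Marf on control day 2 replicate 2 (Cy5) read 0.76, the highest of the 6 control arrays at that age. With the mean of each dye subtracted, its gap to the next array was 0.67 of the whole range of the group, above the critical value of 0.625. The readings without that subtraction were not put to this rule. It was the 1 group of 60 marked in this way, where chance marks about 1 in 20. Without this array the day 2 log2 fold change of Marf was -0.33.

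The spot for the Gal4 coding sequence, which is no fly gene and entered no comparison, was 1.01 higher on the log2 scale in PABPN1-17ala than in controls at day 2, although both genotypes carry the same Mhc-Gal4 driver. The means were 0.45 (Cy5) and 0.89 (Cy3) in PABPN1-17ala against -0.60 and -0.08 in controls.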

How the results depend on the processing

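The call of Marf as lower over the 3 ages held in all 10 alternatives that gave it a value and with each array left out (adjusted p from 6.35e-09 to 0.00192 and from 0.000145 to 0.00128), and 1 of the 9 genes was called each time. A fit of the compared conditions alone gave no separate value for that mean. At single ages 0 of the 9 were called in the chosen fit and 1, always Marf, was called at day 2, 6 and 11 in a single fit of 36 arrays and in means of assumed pairs. The count was also 1 at day 2 with Cy5 alone and with quantile normalization, at day 6 with Cy3 alone, with quantile normalization and with the compared conditions alone, and at day 11 with Cy5 alone. Leaving out each array gave 0 to 1 at day 11, where 1 needs PABPN1-17ala day 11 replicate 4 removed, and removing it together with PABPN1-17ala day 2 replicate 1, chosen after seeing the data, also gave 1. With age, Cy5 alone called 1 gene in controls at day 11 and Cy3 alone 3, and Cy3 alone called 1 in PABPN1-17ala at day 6. Lon in controls at day 11 turned to 0.25 with Cy3 alone, and the change of the Pink1 difference from day 2 to day 11 turned to 0.0485 with quantile normalization; the cause was not tested. Replicate numbers were not taken to pair the arrays, because the labels do not pair them. With condition and dye means subtracted, same-numbered arrays of other conditions and the same dye correlated above 0.1 in 22 of 90 pairs. With other numbers 19 of 180 pairs did, a smaller share, and the median r was 0.018 and -0.005. Between dyes of a condition, 7 of 18 pairs numbered n and n + 3 did, beside 9 of 36 other pairs. Whether arrays share a structure by replicate number was not tested further. With a replicate block 1 of the 9 was called over the 3 ages and 0 at each age. Centring moved no median of all genes by as much as 0.1.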
